A study of Mus musculus with 6 samples.

Results

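Hepatic stellate cells of mice that had been activated by long culture and treated with PRI-724 were compared with freshly plated quiescent stellate cells. The comparison used 4 of the 6 arrays of the study, the 2 arrays of PRI-724-treated cells and the 2 arrays of quiescent cells, chosen by their titles and set against each other within young and within old mice. Young mice were 8 to 11 weeks old and old mice 6 to 9 months old, and each array held RNA of primary cells pooled from 5 mice. The sources used here name no strain, sex or allele for any group. Quiescent cells came from normal liver and had been plated for 12 h without treatment. The PRI-724 group had been kept on uncoated plastic for more than 20 days, with fresh medium every 5 days, and received 10 µM C-82, the active form of PRI-724, in dimethyl sulfoxide. The 2 remaining arrays held cells kept in culture in the same way without the compound, called vehicle below, and are given beside the comparison. How long the cells were exposed to C-82 is not stated in the labels. Treated and quiescent cells therefore differed in both the compound and the time in culture, and in this comparison the 2 cannot be told apart.

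Stellate cells wrap the liver sinusoids as pericytes and store vitamin A. In injured liver, and on plastic, they turn into myofibroblasts, which lose retinoid droplets, assemble smooth muscle actin fibres, secrete collagen and express inhibitors of matrix proteases. C-82 blocks the binding of beta-catenin, the nuclear effector of Wnt signalling, to the coactivator CBP and leaves the related coactivator p300 free to bind. The comparison asks which features of the cultured cell were present under the compound and which were at or below the level of the quiescent cell.

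The design has 1 array for each age and state and thus no spread within a group. A difference is the mean of the young and the old pair in log2 units (1 unit is a 2-fold change), and its standard error (SE) comes from limma, fitted with age and state on all 6 arrays. "Rose" and "fell" are used for genes with a Benjamini-Hochberg adjusted p under 0.05 over all 15526 tested genes, and other values are given without such a verb. Signals on the young array of PRI-724-treated cells were compressed, with an interquartile range of 1.71 log2 units over the tested genes and 2.11 to 2.43 on the other 5 arrays. In the young pair the dimmest 25% of genes had a median difference of 0.20 and the brightest 25% one of -0.19, and in the old pair these medians were -0.12 and 0.14. Calls between quiescent and PRI-724-treated cells depended on the PRI-724 arrays. A fit without a quiescent or a PRI-724 array leaves 1 array in that group, and without either quiescent array most calls remained. All of these calls were lost without the young PRI-724 array, and most were lost without the old one. Calls of the comparisons with vehicle were not checked in this way. Markers of other liver cells gave signal on the quiescent arrays. The median log2 signal of 19 Kupffer cell and macrophage markers was 8.32 (young) and 9.01 (old), and that of 21 sinusoidal endothelial markers was 9.68 and 8.63. These levels compare arrays and not lists, since probe sets differ in brightness. In such bulk samples fewer cells of a type and less RNA per cell cannot be told apart.

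In total 199 genes rose (1.28% of those tested) and 378 fell (2.43%) from quiescent to PRI-724-treated cells. An unadjusted p under 0.05 was seen for 2528 genes (16.3%). With a limit of 2-fold in each age, 220 genes were higher (1.42%), 344 were lower (2.22%), and in 16 the ages had opposite signs (0.103%). The median of all tested genes was 0.03. From quiescent to vehicle-treated cells 716 genes rose (4.61%) and 195 fell (1.26%), and from vehicle to PRI-724 42 rose (0.271%) and 299 fell (1.93%). These 3 comparisons share arrays, and the last is the direct test of how the treated cultures differed from the vehicle cultures. The shares of all tested genes in brackets are to be read beside each list count below.

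**Figure D1:**
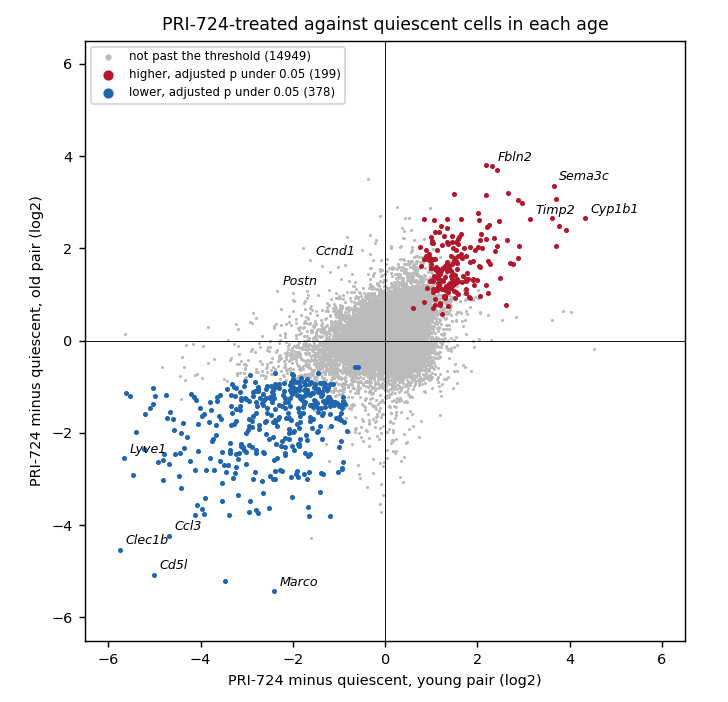
Difference between PRI-724-treated and quiescent cells in log2 units for each of 15526 genes, with the young pair on the horizontal axis and the old pair on the vertical axis; red points rose and blue points fell at a limma adjusted p under 0.05. The 199 red and 378 blue points lie along the diagonal, since the test favours genes whose young and old differences are alike. Ccnd1 and Postn lie above 0 in the old pair and below 0 in the young pair.

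Predicted and unnamed genes were left out of the ranking, and the largest rise was then that of Sema3c, a secreted class 3 semaphorin. Its log2 signal was 4.61 and 4.74 on the young and old quiescent arrays, 7.76 and 6.09 with vehicle, and 8.26 and 8.10 with PRI-724. Both PRI-724 arrays lay above both quiescent arrays, and the difference was 3.51 ± 0.40 (SE, n = 2 pairs; limma adjusted p = 0.00171), or 11.4-fold. Cyp1b1, a cytochrome P450 gene that the aryl hydrocarbon receptor induces, stood at 6.24 and 6.42 in quiescent, 9.04 and 7.95 in vehicle-treated and 10.56 and 9.08 in PRI-724-treated cells. It rose by 3.49 ± 0.38, more in the young pair (4.33) than in the old (2.66). Ahnak2, which encodes a large scaffold protein, rose by 3.39 ± 0.30, and Chchd10, a protein of the mitochondrial intermembrane space, by 3.15 ± 0.46. Lgals1, the lectin galectin-1, was at 7.81 and 9.19 in quiescent cells, 11.45 and 11.99 with vehicle and 11.43 and 11.85 with PRI-724. Its rise of 3.14 ± 0.25 stood beside 3.22 ± 0.25 for vehicle, and PRI-724 minus vehicle was -0.08 ± 0.25. The other genes of the 12 largest rises were the protease gene Mmp10 (3.13), the collagen crosslinker Lox (3.06), the matrix protein gene Fbln2 (3.05), the calcium-binding protein gene S100a6 (7.99-fold), the TEAD cofactor gene Vgll3 (2.97), the uroplakin gene Upk1b (2.93) and the protease inhibitor gene Timp2 (2.89). All 12 had positive vehicle minus quiescent differences as well, of which that of Chchd10 (1.25 ± 0.46, adjusted p = 0.144) did not pass.

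In the same ranking falls were larger than rises. Clec1b, a C-type lectin receptor of sinusoidal endothelium, stood at 10.17 and 9.30 on the quiescent arrays, 8.90 and 7.98 with vehicle, and 4.42 and 4.77 with PRI-724. The difference was -5.14 ± 0.35 (adjusted p = 0.000615), or 35.4-fold lower. Cd5l, a secreted scavenger protein of macrophages, was at 9.28 and 10.49 in quiescent, 10.57 and 9.39 in vehicle-treated and 4.26 and 5.42 in PRI-724-treated cells, and it fell by 5.05 ± 0.51. The remaining 10 of the largest falls were the chemokine genes Ccl3 (-4.45) and Ccl9 (-4.34), the coagulation factor gene F8 (-4.19), the hyaluronan receptor gene Lyve1 (-4.11), Igsf6 (-3.96), the scavenger receptor gene Marco (-3.92), the MHC class II gene H2-Ab1 (-3.92), the phagocyte oxidase subunit gene Cybb (-3.85), the cytokine gene Il1a (-3.82) and the macrophage perforin gene Mpeg1 (-3.82). For 11 of these 12 genes vehicle minus quiescent did not pass the threshold. H2-Ab1 is the exception, at -2.83 ± 0.39.

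**Figure D2:**
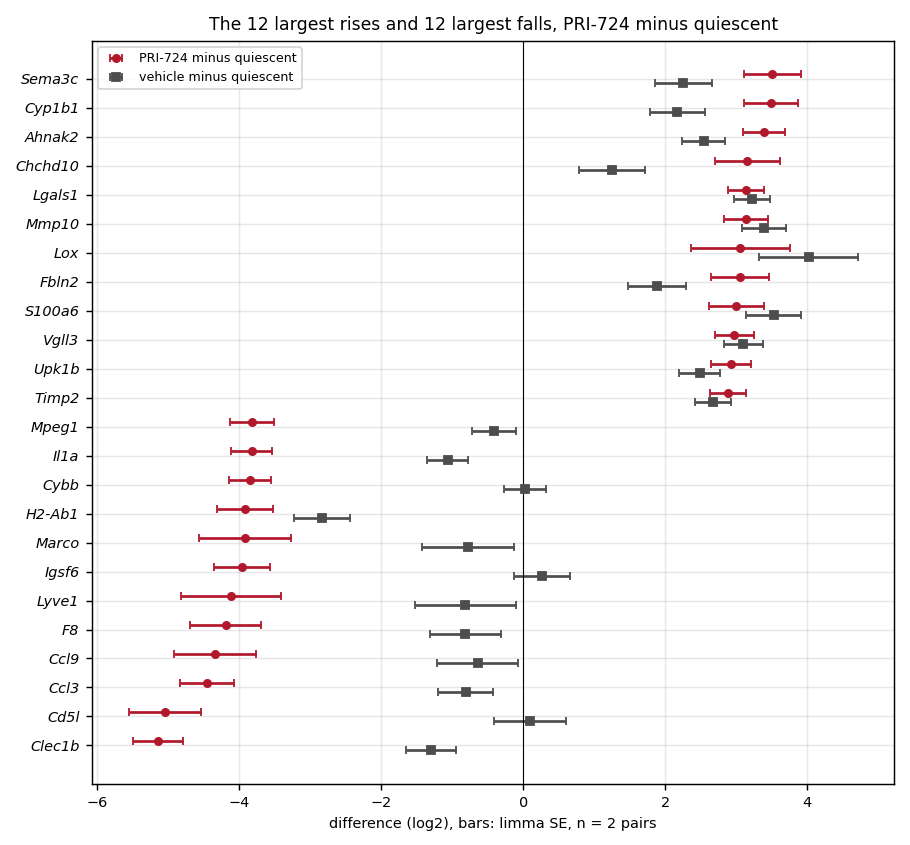
Log2 difference from quiescent cells of the 12 genes that rose most and the 12 that fell most under PRI-724 (red circles), predicted and unnamed genes left out. The vehicle minus quiescent difference of the same genes is shown by grey squares, and bars are limma's SE over 2 pairs. The grey squares of the rises lie between 1.25 (Chchd10) and 4.02 (Lox), while those of Cd5l and Cybb lie near 0 (0.10 and 0.03).

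The contractile apparatus is what makes a myofibroblast pull on its matrix. Of 24 smooth muscle contractile genes 4 rose under PRI-724, against 9 in vehicle-treated cells (1.28% and 4.61% of all tested genes). Directly between vehicle and PRI-724 1 of the 24 fell (7 lower at an unadjusted p under 0.05). In 11 of the 24 both treated arrays lay above both quiescent arrays, against 19.6% of all tested genes. The list's median was 0.36 (young 0.23, old 0.75) beside 0.97 for vehicle. Acta2, the actin isoform of smooth muscle and myofibroblasts, was at 5.94 and 6.97 in quiescent cells, 9.73 and 10.49 with vehicle, and 7.0 and 9.59 with PRI-724. Both treated arrays were above both quiescent arrays, the young one only narrowly, and both were below both vehicle arrays. Acta2 rose by 1.84 ± 0.41 (adjusted p = 0.0400) or 3.58-fold, and PRI-724 minus vehicle was -1.82 ± 0.41 (adjusted p = 0.0573). The other 3 that rose were Actn1, an alpha-actinin of stress fibres (1.39 ± 0.24), the calponin gene Cnn2 (1.42 ± 0.31) and the transgelin family gene Tagln2 (1.02 ± 0.21). For these 3 the difference from vehicle was between -0.44 and 0.05. Myl9, the regulatory light chain of smooth muscle myosin, had another pattern, with 6.37 and 6.86 in quiescent, 9.71 and 9.65 in vehicle-treated and 6.56 and 7.98 in PRI-724-treated cells. It stood at 0.66 ± 0.36 against quiescent cells (adjusted p = 0.423) and fell by 2.41 ± 0.36 against vehicle (adjusted p = 0.00969). The actin cross-linker Palld stood at -0.17 ± 0.40 and the actin-binding caldesmon gene Cald1 at 1.31 ± 0.33 (adjusted p = 0.0643).

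Among 14 tubulin and intermediate filament genes 2 rose, and with vehicle 4 rose (1.28% and 4.61% of all tested genes). The list median was 0.52 beside 0.72 for vehicle. Between vehicle and PRI-724 0 of the 14 passed. Tuba1a, an alpha-tubulin, was at 4.47 and 5.14 in quiescent cells, 8.37 and 8.07 with vehicle and 6.49 and 7.90 with PRI-724, a rise of 2.39 ± 0.38. Des, the muscle intermediate filament desmin that is also a stellate cell marker, was at 6.47 and 7.16, 9.41 and 8.99, and 8.05 and 9.26 in the same order. Des rose by 1.84 ± 0.38 and its PRI-724 minus vehicle difference was -0.54 ± 0.38 (adjusted p = 0.523). For both genes the treated arrays lay above both quiescent arrays.

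Fibrillar collagens form the bulk of scar. Of 8 tested genes 1 rose under PRI-724 and 3 with vehicle (1.28% and 4.61% of all tested genes). The list's median was 0.50, composed of 0.08 for young and 1.29 for old cells. Directly between vehicle and PRI-724 0 of the 8 passed (3 lower at an unadjusted p under 0.05). Col5a2, a chain of the type V collagen that nucleates fibrils, was the one that rose, from 5.10 and 6.57 in quiescent cells to 7.31 and 9.03, with 8.86 and 9.06 for vehicle. Its difference was 2.33 ± 0.37 (adjusted p = 0.00900). Col1a1, a chain of the main scar collagen, was at 6.28 and 6.92 in quiescent cells, 8.85 and 10.16 with vehicle, and 6.08 and 9.10 with PRI-724. The young treated array was below both quiescent arrays and the old one above them, so the groups overlapped, and the difference of 0.99 ± 0.48 did not pass (adjusted p = 0.348). The pairs gave -0.20 for young and 2.18 for old cells. Col1a2 (0.73 ± 0.38), Col3a1 (0.26 ± 0.45) and Col5a1 (0.73 ± 0.32) did not pass.

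The other collagens and the proteins laid down with them split in the same comparison, in which 1.28% of all tested genes rose. Of 8 fibril-associated and beaded collagen genes 1 rose, Col8a1 of the short-chain type, by 1.38 ± 0.29, while Col12a1, which sits on fibril surfaces, stood at 1.92 ± 0.49 (adjusted p = 0.0662) and fell by 2.46 ± 0.49 against vehicle. Of 15 basement membrane genes 2 rose, the laminin chain gene Lamb1 by 1.86 ± 0.25 and the nidogen gene Nid1 by 1.42 ± 0.19, and their vehicle differences were 1.84 and 1.66. Nid2, the paralogue of Nid1, was at 6.24 and 7.71 in quiescent cells, 10.41 and 10.64 with vehicle, and 6.51 and 8.36 with PRI-724. Nid2 stood at 0.46 ± 0.38 against quiescent cells (adjusted p = 0.659) and fell by 3.09 ± 0.38 against vehicle (adjusted p = 0.00389). Ogn, a small leucine-rich proteoglycan gene, was likewise highest on both vehicle arrays. Its signals were 4.86 and 4.87 in quiescent, 9.14 and 8.84 in vehicle-treated and 4.54 and 6.76 in PRI-724-treated cells. Ogn stood at 0.78 ± 0.51 against quiescent cells and fell by 3.34 ± 0.51 against vehicle. Bgn, the proteoglycan biglycan, was the 1 of 7 members of its list that rose, by 0.65 ± 0.13, with 0.63 ± 0.13 for vehicle. The calls of Col8a1 and Bgn were both lost without the age term and after quantile and cyclic loess normalization. That of Bgn was also lost without the filter on signal or without the intensity trend.

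Of 15 enzymes that crosslink or process collagen 1 rose and 6 rose with vehicle (1.28% and 4.61% of all tested genes). The medians were 0.54 and 1.25. Between vehicle and PRI-724 1 of the 15 fell (7 lower at an unadjusted p under 0.05). The riser was Lox, at 5.18 and 6.17 in quiescent cells, 10.54 and 8.86 with vehicle and 7.61 and 9.86 with PRI-724, a rise of 3.06 ± 0.69 (adjusted p = 0.0418). Pcolce, an enhancer of procollagen cleavage, stood at 0.48 ± 0.29 against quiescent cells and fell by 1.59 ± 0.29 against vehicle. Among 20 matricellular and elastic fibre genes, Fbln2 rose by 3.05 ± 0.41, from 5.71 and 5.80 to 8.04 and 9.58, with 6.67 and 8.61 for vehicle. Sparcl1, a SPARC family gene, fell by 2.45 ± 0.30 and Tnfrsf11b, the decoy receptor osteoprotegerin, fell by 1.64 ± 0.35. Sparcl1 fell with vehicle too, by 1.93 ± 0.30. Among 13 matrix-binding integrin genes Itga8 alone passed the test. Itga8, an integrin chain of stellate cells and myofibroblasts, was at 7.10 and 6.12 in quiescent cells, 7.39 and 6.42 with vehicle, and 4.81 and 4.72 with PRI-724, and fell by 1.85 ± 0.30.

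**Figure D3:**
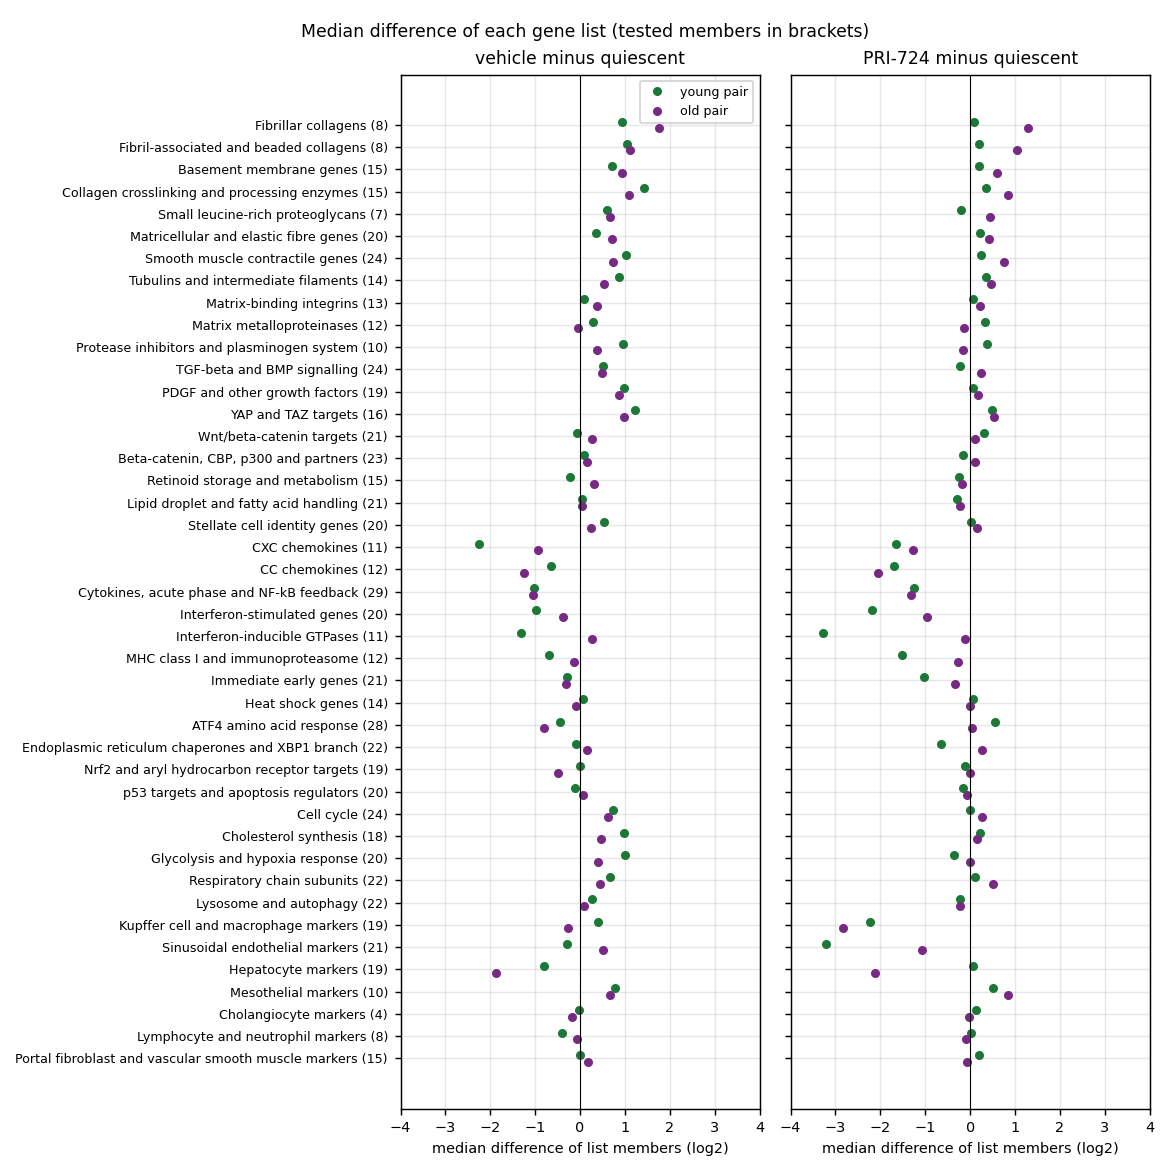
Median log2 difference from quiescent cells of the tested members of 43 gene lists, for vehicle-treated cells (left) and PRI-724-treated cells (right), in the young pair (green) and the old pair (purple). The macrophage and sinusoidal endothelial lists lie near 0 on the left (medians over both pairs of -0.01 and 0.11) and at -2.68 and -2.13 on the right, while the chemokine and cytokine lists lie below 0 on both sides.

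Matrix turnover depends on proteases and their inhibitors. Timp1 and Timp2, which encode inhibitors of matrix metalloproteinases, rose under PRI-724 as they did with vehicle. Timp2 was at 7.45 and 8.24 in quiescent cells, 10.48 and 10.55 with vehicle and 10.59 and 10.87 with PRI-724. Timp1 was at 5.97 and 6.22, 8.41 and 8.94, and 7.45 and 9.39 in that order. The rise of Timp2 was 2.89 ± 0.25 (adjusted p = 0.000756) and that of Timp1 2.33 ± 0.39 (adjusted p = 0.0114), and the groups did not overlap for either. PRI-724 minus vehicle was 0.22 ± 0.25 for Timp2 and -0.26 ± 0.39 for Timp1. Plau, the urokinase plasminogen activator gene of the same list of 10, stood at -1.19 ± 0.33 against quiescent cells and fell by 2.08 ± 0.33 against vehicle.

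Of 12 metalloproteinase genes Mmp10 rose and Mmp12 and Mmp19 fell. Mmp10, the stromelysin-2 gene, was at 7.10 and 7.71 in quiescent cells, 10.86 and 10.73 with vehicle and 10.88 and 10.20 with PRI-724, a rise of 3.13 ± 0.31 (adjusted p = 0.000961). Mmp12, the elastase of macrophages, fell by 2.31 ± 0.46 and Mmp19 fell by 2.99 ± 0.28, and both fell against vehicle as well (-3.50 ± 0.46 and -1.96 ± 0.28). For Mmp12 the quiescent arrays stood at 8.85 and 10.96 and the treated ones at 6.69 and 8.49. The gelatinase gene Mmp2 stood at 0.98 ± 0.29 (adjusted p = 0.103) and the collagenase gene Mmp13 at -0.49 ± 0.39.

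**Figure D4:**
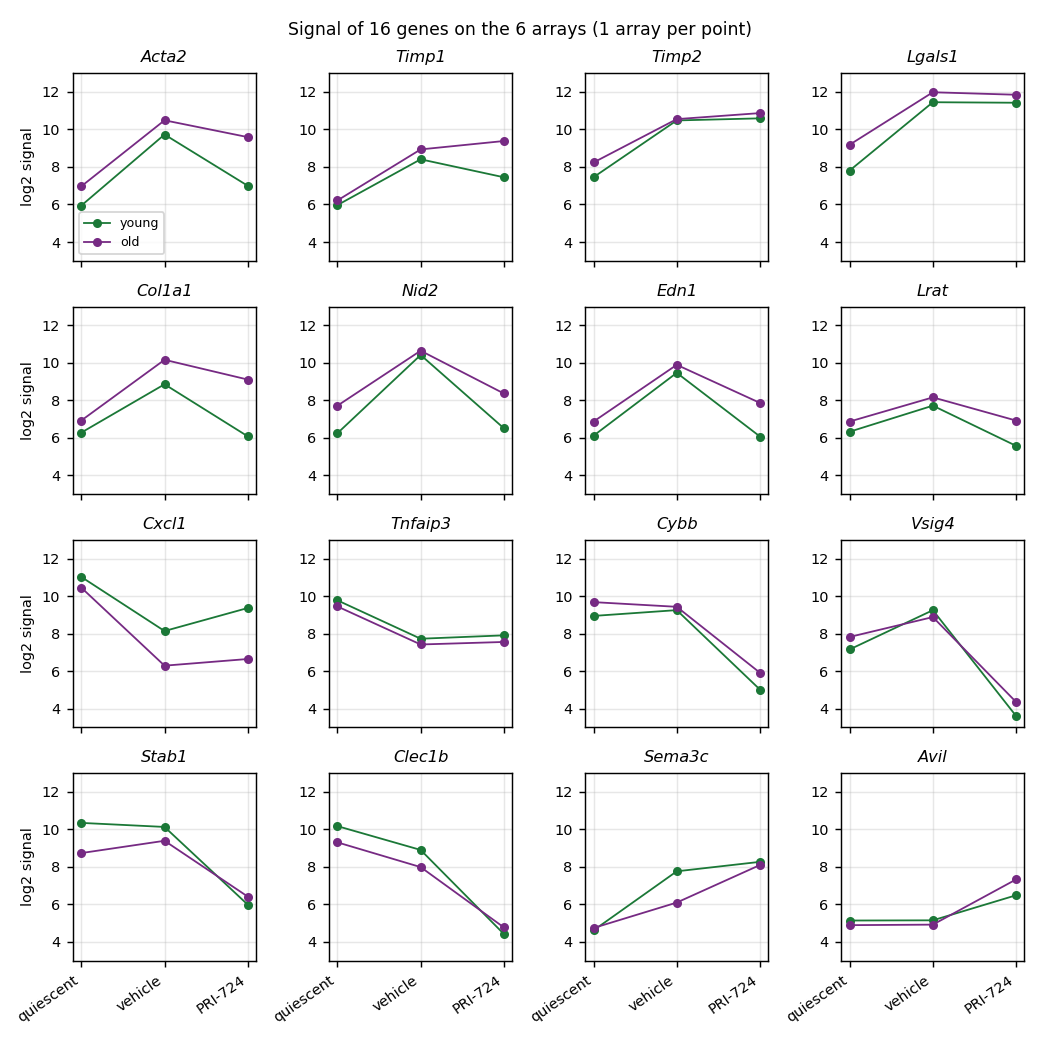
Log2 signal of 16 genes on the young (green) and old (purple) array of each state, 1 array per point. Timp1, Timp2, Lgals1 and Sema3c are high with vehicle and with PRI-724, Nid2, Edn1, Lrat, Acta2 and Col1a1 peak with vehicle, Cxcl1 and Tnfaip3 are highest in quiescent cells, Cybb, Vsig4, Stab1 and Clec1b are lowest with PRI-724, and Avil is highest with PRI-724.

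Growth factor and TGF-beta family signals drive activation, and their genes were tested in 2 lists. Among 19 growth factor and receptor genes of the PDGF and related families none passed the limma test against quiescent cells (3 higher and 2 lower at an unadjusted p under 0.05), while 8 rose with vehicle and 4 fell from vehicle to PRI-724. Edn1, the endothelin that makes stellate cells contract, was at 6.11 and 6.86 in quiescent cells, 9.46 and 9.89 with vehicle, and 6.07 and 7.86 with PRI-724. Edn1 stood at 0.48 ± 0.35 against quiescent cells and fell by 2.71 ± 0.35 against vehicle (adjusted p = 0.00470). Apln, the apelin peptide gene, stood at 1.07 ± 0.60 and fell by 2.76 ± 0.60, and its pairs differed, with 5.23 on the young and 9.26 on the old treated array. Pdgfd, a ligand of the PDGF receptor beta, stood at 0.29 ± 0.36 and fell by 2.27 ± 0.36. The receptor genes Pdgfrb (0.97 ± 0.26, adjusted p = 0.0780) and Pdgfra (0.99 ± 0.40, adjusted p = 0.245) did not pass. Of 24 genes of TGF-beta and BMP signalling 3 passed, beside 3.72% of all tested genes that rose or fell. The BMP modulator gene Bmper (2.12 ± 0.30) and the BMP antagonist gene Grem1 (2.38 ± 0.44) rose and Id2, a BMP target, fell by 1.30 ± 0.29. Id1 stood at 0.12 ± 0.31 and Tgfb3 at 0.78 ± 0.34, and both rose with vehicle, by 1.52 and 2.07. With vehicle 7 of the 24 rose and 1 fell (4.61% and 1.26% of all tested genes). Directly between vehicle and PRI-724 1 of the 24 fell (1.93% of all tested genes). At an unadjusted p under 0.05, 1 was higher and 11 were lower there.

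Wnt and beta-catenin targets were described because C-82 acts on that pathway. None of 21 targets passed the limma test between PRI-724-treated and quiescent cells (1 higher and 0 lower at an unadjusted p under 0.05), and the median was 0.20. Over all tested genes 3.72% rose or fell, so the lack of calls in a list this short says little. Directly between vehicle and PRI-724 0 of the 21 passed, where 0.271% of all tested genes rose and 1.93% fell. The median there was 0.10, with 3 higher and 1 lower at an unadjusted p under 0.05. Axin2, a feedback inhibitor of the pathway, was at 5.87 and 5.99 in quiescent and 6.55 and 5.69 in treated cells, so the groups overlapped (0.19 ± 0.29). Myc, the growth-promoting transcription factor, stood at -0.22 ± 0.24 and fell with vehicle by 1.13 ± 0.24. Ccnd1, cyclin D1, was at 8.26 and 7.38 in quiescent cells and at 6.63 and 9.13 with PRI-724, a difference of -1.63 for young and 1.75 for old cells. Of 23 genes of beta-catenin, its coactivators and partners, Cdh2, the N-cadherin that binds beta-catenin at junctions, rose by 1.55 ± 0.20, with 1.52 ± 0.20 for vehicle. Crebbp, which encodes CBP, stood at -0.61 ± 0.24, Ep300, which encodes p300, at -0.28 ± 0.27 and Ctnnb1, which encodes beta-catenin, at -0.67 ± 0.23.

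YAP and TAZ are coactivators that respond to stiff substrate such as plastic. Of 16 targets 1 rose, the receptor kinase gene Axl, by 1.13 ± 0.19, and its PRI-724 minus vehicle difference was 0.01 ± 0.19. The median of the list was 0.42, beside 1.13 for vehicle with 6 rises. Over all tested genes 1.28% rose under PRI-724 and 4.61% with vehicle. In the direct comparison of PRI-724 with vehicle 0 of the 16 passed (5 lower at an unadjusted p under 0.05). Ankrd1, a nuclear ankyrin-repeat target, was at 7.86 and 11.82 in quiescent and 11.49 and 12.28 in treated cells (2.04 ± 0.64, adjusted p = 0.126). Nt5e, the ectonucleotidase CD73, stood at 1.40 ± 0.51 and rose by 3.51 ± 0.51 with vehicle. Among 24 cell cycle genes none passed against quiescent cells (3 higher and 0 lower at an unadjusted p under 0.05), beside 3.72% of all tested genes. With vehicle 4 rose, including Rrm2, a ribonucleotide reductase subunit, by 1.71 ± 0.32. Directly between vehicle and PRI-724 0 of the 24 passed (11 lower at an unadjusted p under 0.05). Rrm2 stood at 0.88 ± 0.32 under PRI-724 and the proliferation marker Mki67 at -0.09 ± 0.30.

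The quiescent phenotype is defined by retinoid and lipid storage. None of 15 retinoid genes passed the limma test between treated and quiescent cells (1 higher and 0 lower at an unadjusted p under 0.05), and the median was -0.35. With 3.72% of all tested genes past the threshold, the lack of calls in so short a list says little. Lrat, which esterifies retinol for storage, was at 6.32 and 6.87 in quiescent cells, 7.71 and 8.15 with vehicle and 5.57 and 6.92 with PRI-724. Lrat stood at -0.35 ± 0.31 against quiescent cells, rose by 1.34 ± 0.31 with vehicle and fell by 1.69 ± 0.31 from vehicle to PRI-724. Aldh1a1, which makes retinoic acid, stood at 1.09 ± 0.45 and fell by 2.13 ± 0.45 against vehicle, where its rise was 3.21 ± 0.45. Dhrs3 and Rarb, 2 genes that retinoic acid induces, fell against vehicle (-1.51 and -1.82) and stood at -0.51 ± 0.30 and 0.39 ± 0.39 against quiescent cells.

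Of 21 lipid handling genes 3 fell against quiescent cells. Fabp4, a fatty acid-binding protein of adipocytes, macrophages and capillary endothelium, was at 10.47 and 8.63 in quiescent cells, 9.46 and 8.26 with vehicle, and 5.25 and 6.28 with PRI-724. Fabp4 fell by 3.79 ± 0.55, the fatty acid transporter gene Cd36 fell by 2.88 ± 0.41 and the adipogenic factor gene Cebpa fell by 1.23 ± 0.29. Both of the first 2 are also expressed by macrophages or endothelium, whose markers fell in the same arrays, and the part of those cells in the result was not tested. Of 20 stellate cell identity genes 3 rose and 2 fell. The mesenchymal transcription factor gene Foxf1 rose by 1.40 ± 0.31 and Cygb, the stellate cell globin cytoglobin, by 1.79 ± 0.28, beside Des. Cygb was at 7.04 and 7.62 in quiescent and 8.80 and 9.45 in treated cells, with 9.09 and 9.13 for vehicle. The pericyte regulator Rgs5 fell by 2.85 ± 0.29, from 10.26 and 10.48 to 7.02 and 8.01, and the collectin gene Colec11 fell by 1.15 ± 0.26, and both fell with vehicle too. Reln, a stellate cell glycoprotein, stood at 0.28 ± 0.27, Hand2 at 1.05 ± 0.31 and Gfap at 0.35 ± 0.27. All 20 tested genes of the list had signals above 4.70, the lowest mean signal of a tested gene, on all 6 arrays.

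Many inflammatory genes fell from quiescent to treated cells, and their lists held falls with vehicle too. Of 11 CXC chemokine genes 4 fell and of 12 CC chemokine genes 6 fell (2.43% of all tested genes), with medians of -1.79 and -1.96. With vehicle 5 and 4 fell (1.26% of all tested genes). Cxcl1, a neutrophil attractant, was at 11.02 and 10.45 in quiescent cells, 8.13 and 6.29 with vehicle and 9.36 and 6.64 with PRI-724. Cxcl1 fell by 2.73 ± 0.43 (adjusted p = 0.00799), with -3.52 ± 0.43 for vehicle. Cxcl2 fell by 3.23 ± 0.47 and the monocyte attractant Ccl2 fell by 2.35 ± 0.30. For Ccl2 the treated arrays at 10.63 and 8.44 lay below the quiescent ones at 12.32 and 11.45. Ccl3 and Ccl9 differed from these, since they were at 10.45 and 8.55, and 10.72 and 8.72, with vehicle and fell against vehicle (-3.64 ± 0.38 and -3.70 ± 0.58).

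Of 29 cytokine, acute phase and NF-kB feedback genes 10 fell (2.43% of all tested genes) and the median was -1.05. With vehicle 12 fell (1.26% of all tested genes) and the median was -0.96. Nfkbia and Tnfaip3, inhibitors of NF-kB that NF-kB itself induces, fell (-1.49 ± 0.22 and -1.88 ± 0.26). Tnfaip3 was at 9.77 and 9.44 in quiescent cells, 7.72 and 7.42 with vehicle and 7.90 and 7.55 with PRI-724, and its treated and vehicle arrays overlapped. The macrophage enzyme gene Acod1 fell by 3.70 ± 0.38, Il1rn, the antagonist of the interleukin-1 receptor, fell by 3.26 ± 0.31 and the alarmin gene Il33 fell by 3.15 ± 0.29. Il1a was at 9.34 and 9.07 in quiescent cells, 8.31 and 7.99 with vehicle and 5.26 and 5.52 with PRI-724, and fell by 2.76 ± 0.29 against vehicle as well. Of 21 immediate early genes 4 fell, among them Fos, which fell by 1.24 ± 0.27, Ier3, which fell by 1.27 ± 0.23, and the phosphatase gene Dusp1, which fell by 1.28 ± 0.24. The heat shock genes Hspa1a and Hspa1b fell (-1.97 ± 0.44 and -2.39 ± 0.37), 2 of 14 in their list, with -3.20 and -3.55 for vehicle.

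The promoters of several of these genes carry a match to the NF-kB motif, and 4 are shown because their genes fell together from quiescent to treated cells. The sequences are the 250 bases before the start of the gene in RefSeq (GRCm38.p6), 5′ to 3′ on the gene's strand, with matches to the motif (GGG, then 2 bases of any kind, then TTTCC, or its other strand) in capitals. Cxcl1 lies on the plus strand at chr5:90890995-90891244, Cxcl2 on the plus strand at chr5:90903649-90903898, Tnfaip3 on the minus strand at chr10:19015411-19015660 and Nfkbia on the minus strand at chr12:55492648-55492897.
Cxcl1: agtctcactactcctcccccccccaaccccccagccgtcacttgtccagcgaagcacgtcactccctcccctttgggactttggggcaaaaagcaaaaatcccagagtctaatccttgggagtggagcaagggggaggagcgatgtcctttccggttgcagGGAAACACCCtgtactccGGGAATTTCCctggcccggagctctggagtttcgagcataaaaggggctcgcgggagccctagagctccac
Cxcl2: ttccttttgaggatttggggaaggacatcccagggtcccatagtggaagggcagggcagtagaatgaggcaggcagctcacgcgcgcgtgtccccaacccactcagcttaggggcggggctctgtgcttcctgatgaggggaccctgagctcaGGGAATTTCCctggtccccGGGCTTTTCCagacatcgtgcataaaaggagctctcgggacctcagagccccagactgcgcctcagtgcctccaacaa
Tnfaip3: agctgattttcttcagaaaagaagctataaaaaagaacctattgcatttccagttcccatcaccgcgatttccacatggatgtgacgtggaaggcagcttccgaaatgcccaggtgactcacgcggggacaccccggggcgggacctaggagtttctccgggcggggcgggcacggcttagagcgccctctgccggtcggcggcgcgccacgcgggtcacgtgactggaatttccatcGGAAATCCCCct
Nfkbia: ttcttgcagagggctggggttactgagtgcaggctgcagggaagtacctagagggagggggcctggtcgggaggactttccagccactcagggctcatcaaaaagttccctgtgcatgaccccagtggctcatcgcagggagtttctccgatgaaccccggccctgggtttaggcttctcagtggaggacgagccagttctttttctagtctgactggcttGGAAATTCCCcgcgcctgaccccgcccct
The matches begin 89 and 71 bases before the start in Cxcl1, 97 and 78 in Cxcl2, 12 in Tnfaip3 and 29 in Nfkbia. In windows of 300 bases (250 before and 50 after the start), searched on both strands, 7 of 27 inflammation list members that fell and had a promoter in the table held the motif (25.9%), against 195 of 12055 promoters of tested genes (1.62%). The AP-1 motif TGANTCA was also found in 7 of these 27 (25.9%), against 5.68% of tested genes. Among all 295 genes that fell and had a promoter the shares were 5.08% for NF-kB and 10.2% for AP-1. The inflammation lists were built to include genes that NF-kB induces, such as Nfkbia and Tnfaip3, so their share does not describe the fall. The share among list members that did not fall was not counted. Matches of different motifs were counted apart, whether or not they overlapped. A match describes the letters and not a bound site.

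Promoters of 2 genes that rose are shown for the other side of the comparison, with matches found after the scan. In Mmp10 (chr9:7502092-7502341, plus strand) the capitals mark TGANTCA, beginning 63 bases before the start, and in Cnn2 (chr10:79988350-79988599, plus strand) they mark a CArG box, the site of serum response factor, beginning 56 bases before the start.
Mmp10: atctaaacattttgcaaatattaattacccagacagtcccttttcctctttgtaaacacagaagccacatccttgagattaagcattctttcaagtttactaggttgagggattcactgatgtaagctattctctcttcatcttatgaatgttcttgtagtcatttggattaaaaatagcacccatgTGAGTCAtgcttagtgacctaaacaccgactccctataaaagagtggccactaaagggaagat
Cnn2: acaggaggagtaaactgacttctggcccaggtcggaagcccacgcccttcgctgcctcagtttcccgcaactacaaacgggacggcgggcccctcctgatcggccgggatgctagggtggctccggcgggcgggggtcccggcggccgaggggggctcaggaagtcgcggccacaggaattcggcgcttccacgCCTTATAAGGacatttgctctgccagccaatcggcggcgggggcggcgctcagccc
Of 14 matrix, contractile and protease genes that rose and had a promoter, 1 held the AP-1 motif (7.14%), 1 held a CArG box (7.14%, against 1.34% of tested genes) and 4 held the TEAD motif GGAATG (28.6%, against 12.5%). None of the 14 held the TCF/LEF motif ATCAAAG, which 2.72% of tested genes held, which says only that these letters are not in these windows. Among all 148 genes that rose and had a promoter the shares were 6.08% for AP-1, 2.03% for the CArG box and 16.9% for TEAD.

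Many interferon-stimulated genes fell in PRI-724-treated cells, with larger differences in the young pair. Of 20 tested genes 10 fell (2.43% of all tested genes), and the medians were -2.19 for the young pair and -0.96 for the old. With vehicle 2 fell (1.26% of all tested genes), and 9 were lower at an unadjusted p under 0.05. In the direct comparison of PRI-724 with vehicle 0 of the 20 passed, and 8 were lower at an unadjusted p under 0.05. Rsad2, the antiviral enzyme viperin, was at 11.48 and 7.63 in quiescent cells, 8.44 and 6.14 with vehicle and 6.93 and 5.17 with PRI-724. Rsad2 fell by 3.50 ± 0.44 (adjusted p = 0.00233), and Oasl1, an oligoadenylate synthase-like gene, fell by 3.09 ± 0.50. Irf7, the master factor of the interferon response, fell by 2.10 ± 0.31, from 11.14 and 8.58 to 8.70 and 6.82, and since its young treated array lay above its old quiescent array the groups overlapped. The interferon-inducible GTPases, which attack parasite vacuoles, were at least 2-fold lower in 11 of 11 genes in the young pair and in 0 of 11 in the old pair. Over all tested genes the shares at that limit were 8.12% and 3.73%. None passed the limma test (9 were lower at an unadjusted p under 0.05). Iigp1 was at 11.15 on the young quiescent array and 6.13 on the old one, at 9.52 and 6.59 with vehicle, and at 6.32 and 5.55 with PRI-724. The young quiescent and young vehicle arrays were thus the high ones. Of 12 MHC class I and immunoproteasome genes 3 fell, H2-Q4 (-1.49 ± 0.28), H2-T23 (-1.62 ± 0.35) and the immunoproteasome subunit gene Psmb8 (-1.54 ± 0.30).

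The widest falls were in markers of other liver cells. Of 19 Kupffer cell and macrophage markers 17 fell under PRI-724, with a median of -2.68 (young -2.23, old -2.83). With vehicle 1 rose and the median was -0.01, and from vehicle to PRI-724 16 fell. For 18 of 19 both treated arrays lay below both quiescent arrays, against 18.0% of all tested genes. Vsig4, the complement receptor of Kupffer cells, was at 7.15 and 7.82 in quiescent cells, 9.24 and 8.88 with vehicle, and 3.60 and 4.35 with PRI-724. Vsig4 fell by 3.51 ± 0.33 (adjusted p = 0.000756), and its treated levels lay below the limit of 4.70 under which the mean signal of a gene kept it out of the tests. Cybb was at 8.94 and 9.68, 9.25 and 9.43, and 5.01 and 5.91 in that order, and it fell by 3.85 ± 0.29. Ptprc, the pan-leukocyte antigen CD45, fell by 1.99 ± 0.27 and the macrophage growth factor receptor gene Csf1r fell by 2.11 ± 0.42. The summed linear signal of the 19 markers was 9385 and 16959 in quiescent, 13354 and 12792 in vehicle-treated and 1730 and 2618 in PRI-724-treated cells.

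Of 21 sinusoidal endothelial markers 13 fell, with medians of -3.22 for the young pair and -1.08 for the old, and 19 of 21 had both treated arrays below both quiescent ones. Stab1, a scavenger receptor of these cells, was at 10.34 and 8.73 in quiescent cells, 10.13 and 9.39 with vehicle, and 5.98 and 6.41 with PRI-724, and it fell by 3.34 ± 0.42. The receptor gene Fcgr2b fell by 3.70 ± 0.43 and Cdh5, the cadherin of endothelial junctions, fell by 3.21 ± 0.44. Cdh5 remained at 8.30 and 10.30 on the treated arrays. Oit3, at 8.01 and 6.68 in quiescent cells, rose with vehicle to 10.54 and 10.14 and fell by 1.75 ± 0.35 below the quiescent level with PRI-724. Stab2 stood at -2.06 ± 0.59 (adjusted p = 0.0981; young -3.71, old -0.41). The summed linear signal was 28447 and 14352 in quiescent, 21115 and 18979 in vehicle-treated and 4016 and 6994 in PRI-724-treated cells.

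**Figure D5:**
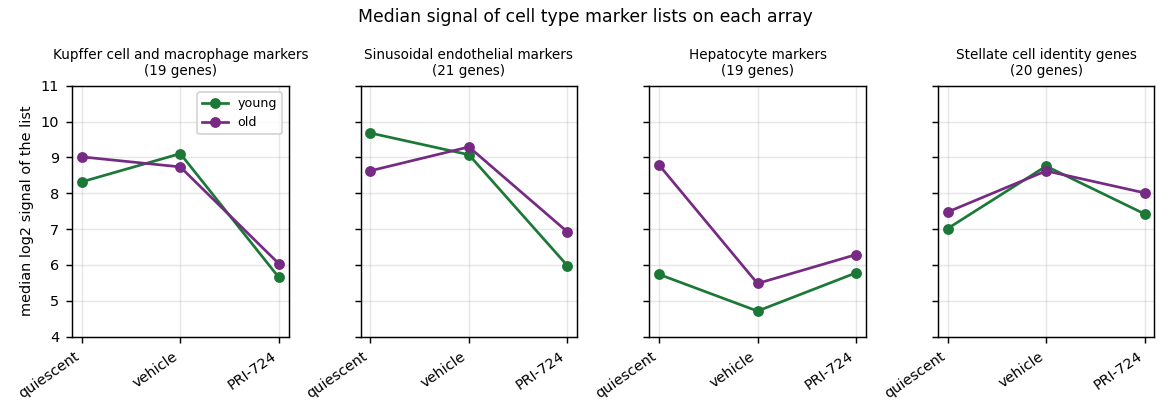
Median log2 signal of the tested genes of 4 cell type lists on the young (green) and old (purple) array of each state. With PRI-724 the macrophage list lies at 5.65 and 6.04 and the endothelial list at 5.98 and 6.92, the hepatocyte list is high on the old quiescent array (8.79), and the stellate list lies between 7.01 and 8.76.

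Hepatocyte markers differed by pair. Of 19 genes 17 were at least 2-fold lower in the old pair (3.73% of all tested genes) and 0 in the young pair (8.12%), and 1 passed the test, the antitrypsin gene Serpina1c, which fell by 1.77 ± 0.38. Alb, albumin, was at 9.32 and 11.95 in quiescent cells, 7.02 and 10.07 with vehicle and 8.96 and 10.22 with PRI-724 (-1.04 ± 0.38). Of 10 mesothelial markers Upk1b rose from 5.66 and 5.59 to 8.33 and 8.79 and Lrrn4 from 4.86 and 5.14 to 6.39 and 7.10, with like levels in vehicle-treated cells. The defining marker Msln stood at 0.52 ± 0.26 with signals of 5.53 to 6.28 over the 6 arrays. Neither the 4 tested cholangiocyte markers nor the 8 lymphocyte and neutrophil markers held a gene past the limma threshold (0 and 1 at an unadjusted p under 0.05). Over all tested genes 3.72% passed. The part of macrophages, endothelium, hepatocytes and mesothelial cells in the gene lists above was not tested.

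Some genes passed the test against both other states. Avil, the actin-binding protein advillin, was at 5.14 and 4.89 in quiescent cells, 5.15 and 4.92 with vehicle, and 6.48 and 7.33 with PRI-724. Avil rose by 1.89 ± 0.31 against quiescent cells (adjusted p = 0.0100) and by 1.87 ± 0.31 against vehicle (adjusted p = 0.0172). Epb41l4a, a member of the band 4.1 family of membrane-skeleton proteins, rose by 1.33 ± 0.24 and 1.14 ± 0.24. The unnamed gene 1700012B09Rik, left out of the ranking, rose more, by 2.98 ± 0.28 against quiescent cells and 2.23 ± 0.28 against vehicle. The genes with the deepest falls below both other states, after Cd5l and Clec1b, included Slc7a8, an amino acid transporter gene (-3.81 ± 0.33 against quiescent and -3.68 ± 0.33 against vehicle), and Clec7a, the beta-glucan receptor dectin-1 (-3.59 ± 0.50 and -4.09 ± 0.50). Both comparisons use the same 2 PRI-724 arrays.

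Stress and metabolic genes were described in 8 lists, to be read against 3.72% of all tested genes that passed in either direction. ATF4 induces amino acid transport and synthesis genes when amino acids are short, and of 28 such genes Aldh1l2, a mitochondrial folate enzyme gene, rose by 1.57 ± 0.34 and Atf3 fell by 1.35 ± 0.27. The median of the list was 0.24 against quiescent cells and 0.88 against vehicle. From vehicle to PRI-724 3 of the 28 rose (0.271% of all tested genes), and 18 were higher at an unadjusted p under 0.05. With vehicle 5 of the 28 fell (1.26% of all tested genes), and 11 were lower at an unadjusted p under 0.05. Slc7a5, a transporter of large neutral amino acids, was at 9.38 and 10.78 in quiescent cells, 8.44 and 9.13 with vehicle, and 10.05 and 10.77 with PRI-724. Slc7a5 stood at 0.34 ± 0.26 against quiescent cells, fell by 1.29 ± 0.26 with vehicle and rose by 1.63 ± 0.26 from vehicle to PRI-724. Ddit3, a pro-apoptotic stress factor, stood at 0.19 ± 0.29. Of 19 antioxidant and aryl hydrocarbon receptor targets 4 passed, Cyp1b1 upward and 3 downward. Gclc fell by 1.28 ± 0.28, Cyp1a1 fell by 1.84 ± 0.42 and Akr1b8 fell by 1.58 ± 0.30, opposite in sign to Cyp1b1, and Nqo1 stood at 0.12 ± 0.28. Of 22 lysosomal genes 5 passed. Ctsk, the collagen-degrading cathepsin K, rose by 2.47 ± 0.33, from 5.55 and 6.77 to 8.44 and 8.81, and Ctss, the cathepsin S of antigen-presenting cells, fell by 2.97 ± 0.37. Ctsb, Ctsd and Gabarapl1 fell as well (-0.58, -0.62 and -1.25). Of 20 p53 and apoptosis genes Ccng1 rose by 0.99 ± 0.22.

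In the lists of cholesterol synthesis (18 genes), glycolysis and hypoxia response (20), respiratory chain subunits (22) and endoplasmic reticulum chaperones (22) no gene passed the limma test against quiescent cells. At an unadjusted p under 0.05 these lists held 6, 2, 1 and 2 genes. The medians were 0.20, -0.15, 0.31 and -0.22. With vehicle the first 2 lists had 4 and 3 rises and medians of 0.77 and 0.75. Between vehicle and PRI-724 these 2 lists had 1 and 2 falls. The lactate transporter gene Slc16a3 was at 5.91 and 5.53 in quiescent cells, 8.31 and 6.49 with vehicle, and 5.59 and 5.08 with PRI-724, and fell by 2.07 ± 0.36 against vehicle. Pfkl, a phosphofructokinase gene of glycolysis, stood at -0.67 ± 0.35 against quiescent cells and fell by 2.01 ± 0.35 against vehicle.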

How the data were processed

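RNA of quiescent, vehicle-treated and PRI-724-treated cells of young and old mice was hybridised to 6 Affymetrix arrays. The deposited values are log2 signals, made by the authors with Affymetrix Expression Console and RMA per the submitters' processing notes; no version is given in the sources used here. Of 41345 probe sets, 23521 carry 1 gene symbol in the platform annotation and were used, while 1814 with several symbols and 16010 without one were not. The brightest probe set stood for each of 22180 genes, and the 30% with the lowest mean over all 6 arrays (under 4.70) were left out, which left 15526. The value of a gene compares arrays and not genes.

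The linear model of limma 3.58.1 (R 4.3.3) held age and state, used an intensity trend, and had 2 residual and 7.76 prior degrees of freedom. The labels do not say that the 2 ages are replicates, so the p-values measure the disagreement of young and old cells over the 3 states. Benjamini-Hochberg adjustment ran over all tested genes, with a threshold of 0.05. On simulated data over 15526 genes, 99% of 100 genes changed 4-fold and 40% of 100 changed 2-fold were recovered, with 12 false calls. The simulated noise was independent and had the model's own spread, without a compressed young PRI-724 array or a vehicle difference. These rates describe that setting and not the deposited arrays. Of 799 genes in 43 lists 701 were tested. Members, lists and named genes were chosen with earlier results of these data known. Named genes were the 12 largest rises and falls, up to 10 genes a direction past the threshold against both other states, up to 4 members of each list by difference from quiescent cells and up to 3 by difference from vehicle, and 31 always named (29 tested). Predicted and unnamed genes were skipped. Other list members that passed, and the genes whose promoters are printed, were named after their values were seen. Motifs were searched in RefSeq promoters of GRCm38.p6, found for 12055 tested genes. Alternatives were the filter, the probe set rule, the trend, the age term, the arrays in the fit, quantile and cyclic loess normalization, the fold limit and each array left out. Plots were made in matplotlib 3.10.9 and tables in pandas 2.3.3 (Python 3.11.15).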

Additional observations from a re-analysis of the deposited data

Results flagged for a closer look

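Postn and Ccnd1 moved in opposite directions in the 2 ages by at least 2-fold. Postn, the matricellular protein periostin, stood at -2.34 for young and 1.09 for old cells, and Ccnd1, cyclin D1, at -1.63 and 1.75. With 1 array in each group the difference between ages was not tested. Of all tested genes 16 behaved in this way (0.103%), and the young PRI-724 array, which had the narrowest range of signals, enters the young value of each.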

How the results depend on the processing

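The counts of 199 rises and 378 falls depended on the model. They were 46 and 171 without an age term, and 407 and 657 with only the PRI-724 and quiescent arrays. With each array left out in turn, rises ranged from 0 (without the young PRI-724 array) to 406 (without the young vehicle array) and falls from 0 to 647. Each fit with an array left out has 1 residual degree of freedom, whichever array it is. The counts of 220 and 344 genes at least 2-fold apart in both ages became 827 and 679 at a 1.5-fold limit, and 496 to 730 and 579 to 1260 with 1 pair. Other filters, probe set means, no trend, quantile normalization (236 and 298) and cyclic loess (201 and 345) stayed within 1.5 times of both counts of calls. Of 90 called named genes 42 were still called without an age term, 70 after quantile normalization and 73 after cyclic loess, and none changed sign under the alternatives run. The labels give no replicate numbers, and the age term of the main model sets young against young and old against old cells. The number of arrays limits the precision, and signals near the lower end of the scale give differences that understate large changes.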
